A study of Mus musculus with 24 samples.

Results

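The peaks described here are H3K4me3 peaks over the promoter of a single protein-coding gene that reach further against the direction of transcription than along it. They come from a ChIP-seq map of C127 cells, an established line of mammary epithelial origin from the mouse, for which no treatment or change of genotype is named. The series held 24 samples in 12 groups, and 3 H3K4me3 ChIP replicates were used, summarised by the authors as 1 list of the peaks shared by all replicates. The list gives positions only, which leaves out any spread between replicates, and the read depth behind it is unknown. Of 13451 peaks, 13447 lay on chromosomes 1 to 19 and X, and 7182 of these were eligible. An eligible peak covered listed transcription start sites (TSSs) of exactly 1 gene, which was protein-coding, and no listed TSS of the opposite strand lay within 2000 bp of a covered TSS. Listed TSSs were those of basic GENCODE transcripts of coding and long noncoding RNA (lncRNA) genes, so other annotated starts could lie in or near an eligible peak. From the most upstream covered TSS, the upstream extent was larger than the downstream extent in 438 peaks of 437 genes. These upstream-longer peaks were 6.1% of the eligible peaks (95% Wilson interval 5.57 to 6.68%, which covers counting error only). The other 6744 eligible peaks are the group they are set against, and 26 genes had peaks in both groups. The peak list was also checked against the cell type: a peak covered a TSS of 1 of 10 epithelial marker genes (Gata3, and none of Krt8, Krt18, Krt7, Krt19, Epcam, Cdh1, Krt14, Krt5 and Elf5) and of 4 of 5 mesenchymal marker genes (Vim, Col1a2, Pdgfra and Fn1, and not Col1a1). Most defining promoters of the labelled cell type thus carried no peak.

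H3K4me3 is trimethylation of lysine 4 of histone H3, a mark of the nucleosomes that flank the start sites of active genes. It is placed by the SET1 and MLL methyltransferase complexes, and the CFP1 subunit of the SET1 complex binds both unmethylated CpG dinucleotides and the mark itself. At most promoters the mark extends mainly into the transcribed side, where the first nucleosomes downstream of the start site lie, and CpG islands, stretches rich in CpG, usually continue into the gene as well. A peak that is longer on the upstream side departs from this arrangement, by a few bases or by kilobases.

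Sequences from 5 of the loci illustrate what lay under the upstream side of such peaks. Each is the 150 bp richest in CpG on the named side of the peak and outside annotated exons, in mm10 coordinates, written in the direction of transcription with every CpG in capitals. The first 3 are from the peaks of Cirbp, Junb and Hoxc12, which are among the peaks with the largest upstream excess, and lie between genes, away from any annotated start.
Cirbp upstream: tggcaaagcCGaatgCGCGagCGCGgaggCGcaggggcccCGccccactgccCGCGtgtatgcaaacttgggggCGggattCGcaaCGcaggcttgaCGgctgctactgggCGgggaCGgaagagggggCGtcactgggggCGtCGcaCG
Junb upstream: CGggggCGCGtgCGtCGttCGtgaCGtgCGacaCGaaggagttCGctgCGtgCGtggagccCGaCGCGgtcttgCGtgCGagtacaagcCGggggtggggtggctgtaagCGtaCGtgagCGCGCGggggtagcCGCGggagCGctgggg
Hoxc12 upstream: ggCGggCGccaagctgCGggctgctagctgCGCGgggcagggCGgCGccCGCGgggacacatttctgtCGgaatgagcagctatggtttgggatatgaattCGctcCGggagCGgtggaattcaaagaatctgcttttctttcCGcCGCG
The Cirbp stretch (chr10:80160044-80160193, plus strand) lay 7585 to 7734 bp upstream of the TSS and held 19 CpGs. The Junb stretch (chr8:84986079-84986228, minus strand) lay 7361 to 7510 bp upstream and held 26 CpGs. The Hoxc12 stretch (chr15:102935077-102935226, plus strand) lay 1531 to 1680 bp upstream and held 16 CpGs. CpG-rich sequence was thus present at a distance from the annotated start in these 3 peaks. On the downstream side, the richest stretch held 23 CpGs at Cirbp, 199 to 348 bp from the TSS, and 3 at Hoxc12. Exons were left out of this search. With exons included, the 1000 bp on each side of the Hoxc12 TSS held 28 CpGs upstream and 72 downstream. At Osbpl2, also among the peaks with the largest upstream excess, the richest upstream stretch held 16 CpGs. It lay only 15 to 164 bp from the TSS. The next pair, from the 2 sides of the Ikzf2 TSS, shows a promoter whose CpGs lie upstream.
Ikzf2 upstream: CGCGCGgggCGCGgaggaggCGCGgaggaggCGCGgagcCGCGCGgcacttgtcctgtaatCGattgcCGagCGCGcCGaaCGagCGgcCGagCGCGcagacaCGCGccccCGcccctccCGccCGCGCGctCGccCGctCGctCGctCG
Ikzf2 downstream: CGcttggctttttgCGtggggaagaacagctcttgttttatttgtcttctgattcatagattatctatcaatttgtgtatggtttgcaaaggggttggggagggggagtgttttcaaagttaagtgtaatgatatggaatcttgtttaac
The upstream stretch of Ikzf2 (chr1:69687455-69687604, minus strand, outside the gene) held 34 CpGs, against 2 in the downstream stretch (chr1:69686882-69687031, intronic). The last sequence is from the peak of Spaca6, whose upstream side also holds CpG islands. The richest stretch outside exons in the upstream side of the Spaca6 peak (chr17:17825913-17826062, plus strand, between genes) held 4 CpGs.
Spaca6 upstream: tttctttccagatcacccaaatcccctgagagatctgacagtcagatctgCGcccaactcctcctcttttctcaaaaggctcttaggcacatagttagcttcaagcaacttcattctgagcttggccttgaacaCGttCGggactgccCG

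The peaks were chosen by these measured extents, which are therefore given as a description, without a test. The upstream extent of the upstream-longer peaks ranged from 194 to 9444 bp with a median of 1467 bp (quartiles 987 and 2088.5 bp), against a median of 710 bp in the other eligible peaks (quartiles 410 and 1097.25 bp). Their downstream extent had a median of 1052.5 bp, against 2200 bp. The upstream-longer peaks were therefore both longer on the upstream side and shorter on the downstream side. An upstream extent of at least 2000 bp was found in 29.0% of them and in 3.00% of the others, and one of at least 5000 bp in 9 upstream-longer peaks and in 4 others. Total width had a median of 2511 bp against 2986 bp, and 41 upstream-longer peaks (9.36%) were narrower than 1000 bp, against 177 of the others (2.62%). The upstream side took a median of 56.9% of the width, against 24.6%.

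**Figure D1:**
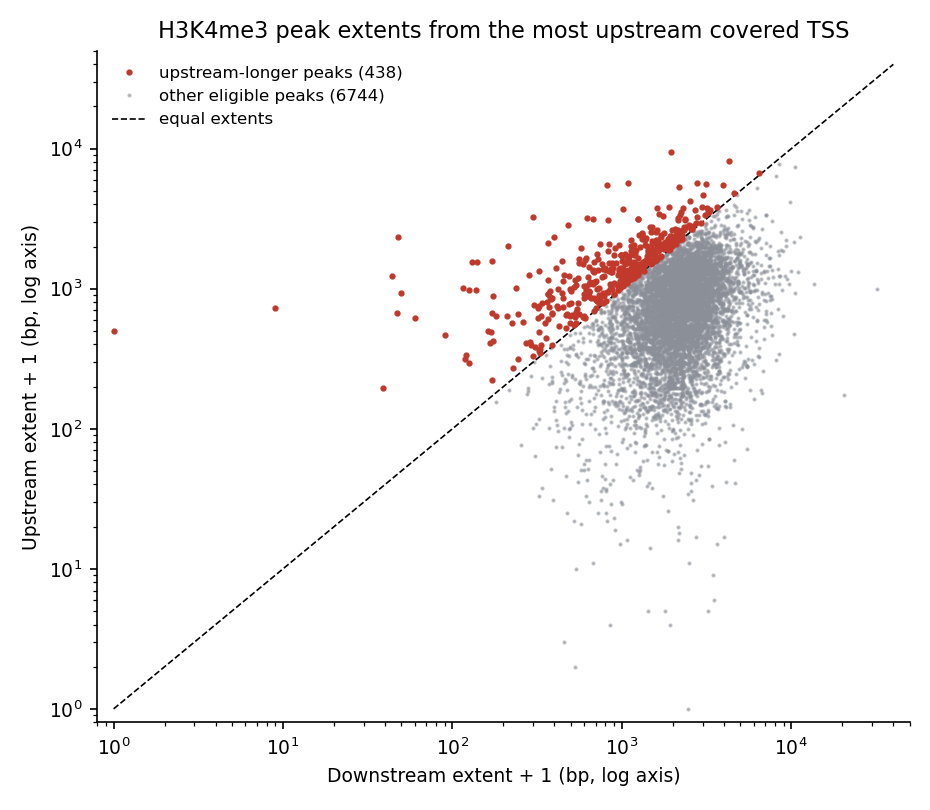
Upstream extent (vertical axis) against downstream extent (horizontal axis) of each eligible peak, in bp plus 1 on log axes, with the 438 upstream-longer peaks in red above the dashed line of equal extents and the 6744 other eligible peaks in grey on or below it. Many red points lie close to the line, since 76 upstream-longer peaks differ by less than 100 bp, and a smaller number lie far to the left, where the downstream side is short.

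Most of the excesses were modest. The upstream minus downstream difference had a median of 323 bp (quartiles 148 and 628.5 bp), 257 peaks differed by at least 250 bp, and 54 by at least 1000 bp. Just inside the threshold lay Gtdc1 and Tnks1bp1, each with a difference of 4 bp, Ap5s1 with 2 bp and Gstp1, a glutathione transferase gene, with 1 bp. Just outside lay Prim2, a primase subunit gene, with a difference of 0 bp, and Cep70, Fam214a and Pinx1, each with -3 bp. The threshold thus cuts through a continuous range of differences. At the other end, the peak of Rtl8a ended at its TSS (497 bp upstream, 0 bp downstream) and that of Pdpr passed its TSS by 8 bp (733 bp upstream). The narrowest upstream-longer peak, at Slc6a21, spanned 233 bp, and the widest, at the H3K27 demethylase gene Kdm6b, spanned 13197 bp, of which 6740 bp lay upstream and 6456 bp downstream.

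The 12 peaks with the largest difference lay at genes of different functions. The largest was at Cirbp, which encodes an RNA-binding protein induced by cold (chr10:80158334-80169739, TSS at 80167778 on the plus strand). It extended 9444 bp upstream and 1961 bp downstream, and its far end overlapped the last 35 bp of the neighbouring gene Midn, which is transcribed in the same direction and has its own start outside the peak. The peak thus filled the interval between both genes. An unlisted start of Cirbp itself lay 1793 bp upstream, close to the TSS relative to the length of the upstream side. The peak held 3 CpG islands apart from the TSS, between 2171 and 8119 bp upstream.

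The peak at Spaca6, a gene of sperm and egg fusion, extended 5486 bp upstream and 813 bp downstream. It covered the microRNA genes Mir99b, Mirlet7e and Mir125a on the same strand and an unlisted start of Spaca6 3846 bp upstream, and RefSeq placed a start of Spaca6 4919 bp upstream. No island lay at its TSS itself, whereas 4 lay further upstream in the peak. At Adcy6, an adenylyl cyclase gene, the sides measured 3728 and 1012 bp, and unlisted starts of the gene reached 2443 bp upstream, with no island at the TSS and 1 island at 1222 to 2572 bp. At Cdk6, a G1 cyclin-dependent kinase gene, the sides measured 3177 and 619 bp, unlisted starts of the gene reached 2408 bp upstream, and RefSeq had an opposite-strand transcript, Gm36470, starting 1641 bp upstream. In these 3 peaks the upstream side covered further starts of the same gene.

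The reference TSS was an internal start in other members of the 12. The peak at Bcl9l, a beta-catenin cofactor gene, lay over a TSS 16311 bp downstream of the first listed TSS of the gene, and extended 5605 bp upstream and 3118 bp downstream, with an unlisted start at 829 bp. The peak at Mbnl1, a splicing regulator gene, lay over TSSs 55952 bp downstream of the first one, extended 2840 and 482 bp, and covered an unlisted start 903 bp upstream.

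In 6 of the 12, the comprehensive GENCODE annotation held no start in the upstream side. These were Hoxc12, a homeobox gene of the Hoxc cluster (5675 bp upstream and 1088 bp downstream), Junb, an AP-1 subunit gene (8117 and 4280 bp), Osbpl2, an oxysterol-binding protein gene (5330 and 2179 bp), Foxl1, a forkhead factor gene (3267 and 296 bp), Bicra, a subunit gene of a SWI/SNF chromatin remodelling complex (5698 and 2778 bp), and Nr4a3, an orphan nuclear receptor gene (3146 and 670 bp). RefSeq starts lay 2988 bp upstream at Osbpl2, 255 bp at Foxl1, 225 bp at Bicra, 75 bp at Nr4a3 and 30 bp at Junb, and none lay upstream at Hoxc12. All 6 peaks held CpG islands apart from the TSS in the upstream side, 5 at Hoxc12 (1335 to 5345 bp), 3 at Junb (1457 to 7689 bp), 3 at Bicra (671 to 5322 bp), 2 at Nr4a3, 1 at Foxl1 and 1 at Osbpl2. The Junb peak also reached 397 bp into Prdx2 on its downstream side, and Foxl1 lies within the span of the long gene model Gm20388.

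**Figure D2:**
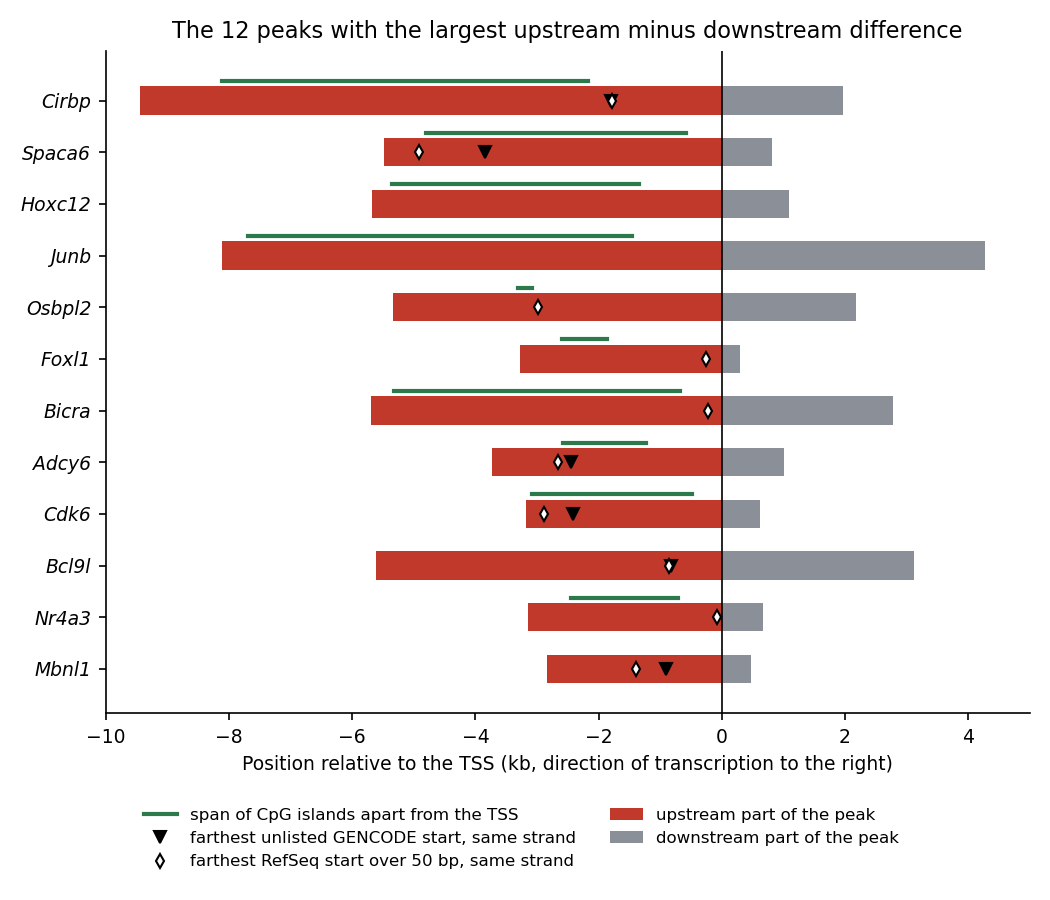
Extent of the 12 upstream-longer peaks with the largest difference, in kb from the TSS with transcription to the right; red is the upstream side and grey the downstream side. Green lines span the CpG islands apart from the TSS, triangles mark the farthest unlisted GENCODE start and diamonds the farthest RefSeq start (over 50 bp) on the same strand. Triangles are present for 6 of the 12 peaks, and green lines for all but Bcl9l and Mbnl1.

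CpG position was read in fixed windows of 1000 bp on each side of the TSS, which the choice of peaks did not use. In the upstream-longer peaks CpGs were spread almost evenly, with a mean of 40.5 upstream and 46.9 downstream, against 32.8 and 62.0 in the other eligible peaks. The mean upstream minus downstream difference was -6.43 CpGs, against -29.2. Per chromosome, the difference was higher in the upstream-longer peaks by 23.5 ± 6.59 CpGs (SD, n = 20 chromosomes), and it was higher on 20 of 20 chromosomes (permutation test that flips the sign of each chromosome's difference, two-sided, p = 2e-05, the smallest the resamples can give, adjusted over 7 tests p = 4.67e-05). The CpGs of these promoters therefore lay further upstream, and this held in windows of 500 and 2000 bp. The total number within 1000 bp on both sides was lower, with a mean of 87.4 against 94.9 (mean chromosome difference -8.42 ± 10.4, lower on 14 of 20 chromosomes, permutation p = 0.00122, adjusted p = 0.00214). With only the peaks that cover 1 TSS this difference was -7.00 and did not pass the threshold (permutation test, adjusted p = 0.051).

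**Figure D3:**
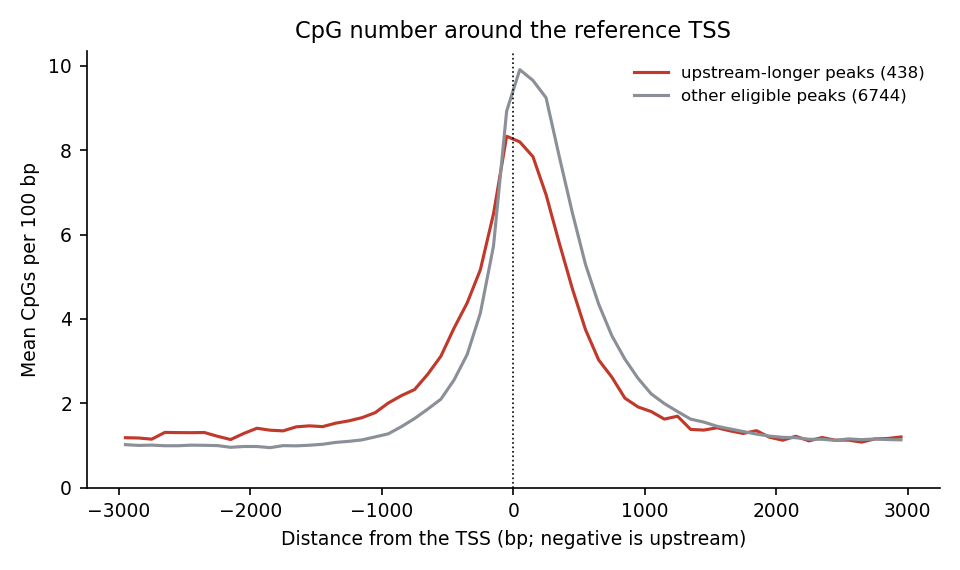
Mean number of CpGs per 100 bp (vertical axis) against distance from the TSS in bp (negative is upstream), for the upstream-longer peaks (red) and the other eligible peaks (grey). The red curve has its top of 8.33 CpGs in the last 100 bp before the TSS and lies above the grey one in every bin further upstream, while the grey curve has its top of 9.90 in the first 100 bp after the TSS and is also the higher one, at 8.92, in the last 100 bp before it.

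CpG islands, called from the sequence alone, are given as a description. An island lay within 250 bp of the TSS in 376 upstream-longer peaks (85.8%), against 6424 others (95.3%). Where there was one, it extended a median of 451.5 bp upstream and 531 bp downstream in the upstream-longer peaks, against 306 and 643 bp. It was longer on the upstream side in 150 (39.9%), against 850 (13.2%). The upstream side of the peak held a further island, ending more than 250 bp before the TSS, in 114 (26.0%), against 491 (7.28%), although the upstream side was longer in the first group by its choice. More CpGs lay upstream than downstream, in the 1000 bp windows, in 174 upstream-longer peaks (39.7%) and in 689 others (10.2%), so a majority of the upstream-longer peaks still had more CpGs on the downstream side.

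Single promoters spanned the range from one side to the other. The excess upstream was largest at Ikzf2, which encodes the lymphoid zinc finger factor Helios, with 107 CpGs upstream and 14 downstream in a peak of 916 bp upstream and 364 bp downstream. It was followed by Ahdc1 (129 and 50 CpGs, at a TSS 27987 bp into the gene), Rap2c, a small GTPase gene (107 and 30), Fbxw7, an F-box gene (116 and 47), Ctnna3, an alpha-catenin gene (85 and 17), and Pik3ca, a PI3-kinase catalytic subunit gene (110 and 44). None of these 6 had an unlisted GENCODE start in the upstream side, which also held for 68.3% of all upstream-longer peaks. The peaks of Fbxw7 and Pik3ca were nearly symmetric, with differences of 160 and 17 bp. At the other end stood Frat1, a WNT signalling gene, with 27 CpGs upstream and 128 downstream in a peak of 559 bp, Fancf, a Fanconi anaemia gene (30 and 129), and Zbtb2 (52 and 145). The extent of a peak and the side of its CpGs thus differed in direction in these 3 promoters.

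Further start sites upstream were looked for in the comprehensive GENCODE annotation, among the starts that are not basic starts of coding or lncRNA genes and so were unlisted in the choice of peaks. In a fixed window of 51 to 3000 bp upstream, 92 upstream-longer peaks (21.0%) had an unlisted start on the same strand, against 707 others (10.5%). The mean chromosome difference was 10.9 ± 7.86 percentage points (SD, n = 20 chromosomes), positive on 18 of 20 (permutation p = 2e-05, adjusted p = 4.67e-05). An unlisted upstream start was thus more frequent at these promoters, and this call held under every alternative that was run. Its size ranged from 4.43 percentage points with curated RefSeq starts (permutation test, adjusted p = 0.0259) to 14.1 with all RefSeq starts and 27.3 where the extents were taken from the most downstream covered TSS. That last setting moves the reference downstream in peaks covering several TSSs. Unlisted starts between covered TSSs can then enter the window, so its size is partly built in.

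Within the upstream side of the peak itself, at any distance from the TSS, 113 upstream-longer peaks (25.8%) had an unlisted same-strand start, and in 108 of these it belonged to the same gene. Such a start was found in 998 of the others (14.8%), and in 978 of these it belonged to the same gene. These counts and those below that refer to the upstream side of the peak are a description, because the side searched was longer in the upstream-longer peaks by their choice. Examples with a distant start of the same gene were Zfp462, a zinc finger gene (start 2928 bp upstream, in an upstream side of 3553 bp), Foxp1, a forkhead factor gene (1724 bp of 3348 bp), and Kif14, a mitotic kinesin gene (1592 bp of 2087 bp). The starts belonged to another gene in few peaks. Besides the microRNAs at Spaca6, they included Mir1903 at Nrp1, a semaphorin and VEGF co-receptor gene, and coding genes at Prr12 (Prrg2, 1999 bp upstream) and 2310011J03Rik (Pcsk4, 2590 bp upstream).

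**Figure D4:**
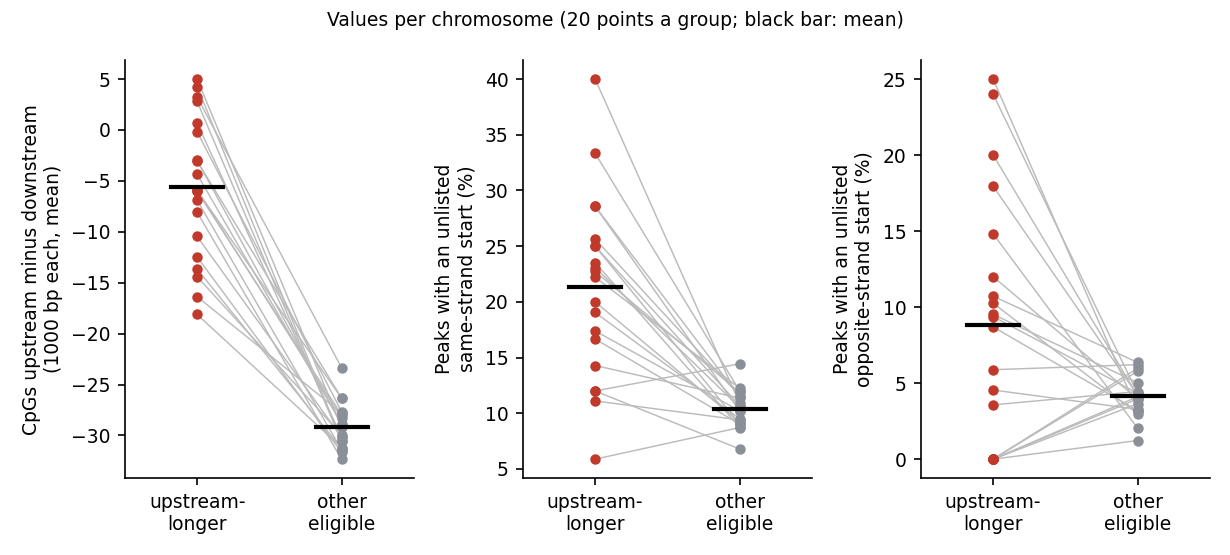
Values per chromosome in the upstream-longer peaks (red, left) and the other eligible peaks (grey, right), with lines joining the same chromosome and black bars at the mean of 20 chromosomes. Left, the mean CpG number upstream minus downstream separates the groups on every chromosome (-18.1 to 5.00 against -32.3 to -23.4); middle, the share with an unlisted same-strand start runs from 5.88 to 40.0% against 6.80 to 14.4%; right, the share with an unlisted opposite-strand start runs from 0 to 25.0% against 1.22 to 6.36%.

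Listed TSSs on the opposite strand were barred within 2000 bp by the choice of peaks, and only unlisted ones were counted. In the window of 1 to 3000 bp upstream, 43 upstream-longer peaks (9.82%) had one, against 278 others (4.12%). The mean chromosome difference was 4.70 ± 8.45 percentage points, positive on 12 of 20 chromosomes (permutation p = 0.0225, adjusted p = 0.0315). This difference was not stable. It did not pass the threshold when any of chromosomes 4, 7, 13, 16 and 17 was left out (3.79 percentage points without chromosome 16), nor in the window of 1 to 1000 bp (3.24, permutation test, adjusted p = 0.0739), with all gene types listed (2.37, adjusted p = 0.0516), or with curated RefSeq starts (2.13, adjusted p = 0.0952).

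In 32 upstream-longer peaks (7.31%) an unlisted opposite-strand start lay inside the upstream side, against 150 others (2.22%), again over unequal lengths. In 13 of the 32 it was a start of a protein-coding gene, and in 8 of a transcript to be experimentally tested. These types are given for the upstream-longer peaks only, so they cannot be compared with the others. The coding partners included Numa1, a spindle protein gene, 270 bp from the TSS of Lrrc51, Plgrkt, a plasminogen receptor gene, 147 bp from that of Cd274, which encodes PD-L1, and Pcmt1 84 bp from that of Lats1, a Hippo pathway kinase gene. Similar pairs were Gas2 and Fancf (160 bp), Tmem135 and Fzd4, a WNT receptor gene (133 bp), and Efcab7 and Itgb3bp (314 bp). At Foxf1, a forkhead factor gene, the unlisted starts were those of the long noncoding RNA Fendrr, up to 1354 bp away, in a peak with 1565 bp upstream and 171 bp downstream. These promoters have annotated transcripts in both directions that the basic coding and lncRNA set leaves out.

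A start of either strand lay in the upstream side in 139 upstream-longer peaks (31.7%), and none in 299 (68.3%), against 5616 others with none (83.3%). With RefSeq starts added, 138 upstream-longer peaks (31.5%) and 2924 others (43.4%) had no start of either annotation there. A RefSeq start on the same strand, more than 50 bp upstream, was found in 168 (38.4%), against 1568 (23.3%). Split by both features, 66 upstream-longer peaks had an unlisted GENCODE start and more CpGs upstream, 73 the start only, 108 the CpGs only, and 191 neither. The 191 peaks with neither had a median difference of 284 bp and a median width of 2595 bp. All upstream-longer peaks, which include them, had 323 and 2511 bp. The median difference was 361.5 bp with more CpGs upstream and 309 bp without. It was 357 bp with an unlisted GENCODE start in the upstream side and 307 bp without. These contrasts were not tested.

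The position of the start within its gene differed less. The reference TSS was not the first listed TSS of its gene in 49 upstream-longer peaks (11.2%), against 521 others (7.73%), a mean chromosome difference of 4.80 ± 14.3 percentage points that did not pass the threshold (permutation p = 0.0779, adjusted p = 0.0909). Chromosome 14 stood apart, with 5 of 7 such peaks, and without it the difference was 1.81 percentage points. Without chromosome X, and under 5 other settings that change the peaks compared or the reference TSS, the difference passed the threshold. Among the 5 is the most downstream covered TSS as the reference. In peaks covering several TSSs this moves the reference away from the first covered TSS, so that pass is partly built in. In the 49 peaks the TSS lay 1008 to 308540 bp from the first one, with a median of 11834 bp, and 27 lay beyond 10 kb. They included Nr4a2, an orphan nuclear receptor gene (8965 bp), Lif, a cytokine gene (9538 bp), Cic, a transcriptional repressor gene (14475 bp), Smarcd3, a SWI/SNF subunit gene (22399 bp), and Maml3, a Notch coactivator gene (308540 bp).

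Genes of the upstream-longer peaks had a median length of 24200.5 bp, against 28060.5 bp. The mean chromosome difference in log10 length was -0.04 ± 0.12 and did not pass the threshold (permutation p = 0.152). Genes under 5000 bp made up 52 (11.9%), against 538 (7.98%). The body of another gene lay within 2000 bp upstream in 75 (17.1%), against 893 (13.2%). A single covered TSS was more common, in 272 (62.1%) against 3482 (51.6%). This share is tied to the choice of peaks. Extents were taken from the most upstream covered TSS, so the span of any further covered TSSs counted as downstream extent.

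Repeats were compared because reads without a unique position had been discarded. The share of soft-masked repeat bases in the 1000 bp upstream exceeded that in the 1000 bp downstream by 2.22 percentage points in the upstream-longer peaks and by 10.8 in the others. The mean chromosome difference was -8.46 ± 3.46 percentage points, negative on 20 of 20 chromosomes (permutation p = 2e-05, adjusted p = 4.67e-05). Upstream, repeats made up a mean of 14.8% of bases in the upstream-longer peaks and 19.8% in the others, and downstream 12.6% and 9.08%, so the groups differed on both sides and in opposite directions. The part of repeats in the extents was not tested.

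The share of upstream-longer peaks per chromosome had a mean of 6.13 ± 1.88% (SD, n = 20 chromosomes) and ran from 2.53% on chromosome 1 to 9.40% on chromosome 15. For 28 gene lists, the shares are given as counts beside the 6.1% of all eligible peaks, with no test, and the median difference of all eligible peaks was -1322 bp.

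Numbered Zfp zinc finger genes, most of which encode DNA-binding repressors, had 25 upstream-longer peaks of 190 (13.2%), with a list median difference of -934 bp. Their differences were small, from 20 to 999 bp, and led by Zfp784, Zfp444 and Zfp619, with 999, 606 and 501 bp. Of the 25, 9 lay on chromosome 7, which held 39 of all 438 upstream-longer peaks. How many of the 190 lay there is not given. An unlisted start in the upstream side was present in 10 of the 25, against 139 of all 438 (31.7%). More CpGs lay upstream than downstream in 7 of the 25, against 174 of all 438 (39.7%). Chromatin modifiers had 7 of 55 (12.7%), with Smarcd3 (1905 bp), the deacetylase gene Sirt7 (593 bp) and the SWI/SNF core subunit gene Smarcb1 (582 bp) first. Histone genes had 3 of 11 (27.3%), namely Hist1h3e (834 bp), H2afv (327 bp) and Hist2h4 (326 bp).

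Immediate early genes, which are induced without new protein synthesis, had 4 of 20 (20.0%), with differences of 3837 bp at Junb, 1291 bp at Egr3, 605 bp at Fos and 54 bp at Nr4a1. None of the 4 had an unlisted GENCODE start in the upstream side, which also held for 68.3% of all upstream-longer peaks. The median of the list was -1512.5 bp, below that of all eligible peaks. Nuclear receptors had 5 of 32 (15.6%), with Nr4a3 (2476 bp), Nr4a2 (2274 bp) and the estrogen receptor beta gene Esr2 (220 bp) first, and thus included all 3 members of the Nr4a family. WNT signalling genes had 5 of 23 (21.7%), among them the ligand genes Wnt10b (243 bp) and Wnt9a (238 bp) and the receptor gene Fzd4 (107 bp), while the list median was -1762 bp. Notch signalling genes had 2 of 12 (16.7%), the target gene Hey1 (788 bp) and Maml3 (44 bp), with a list median of -1856.5 bp. Both medians lay below that of all eligible peaks.

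Developmental transcription factor families had 6 of 63 (9.52%), led by Hoxc12 (4587 bp), Foxl1 (2971 bp) and Foxf1 (1394 bp), while the list median of -1797 bp lay below that of all eligible peaks. Foxl1 and Foxf1 are neighbours on chromosome 8, at 121124673 and 121082821 bp, and are not independent loci. Ion channel genes had 3 of 8 (37.5%), Kcnn1 (1915 bp), Cacng7 (1399 bp) and Cacna1g (158 bp). Solute carriers had 11 of 123 (8.94%), with the serotonin transporter gene Slc6a4 (1427 bp) and the mitochondrial carrier gene Slc25a35 (746 bp) among the first. Chaperone genes had 4 of 42 (9.52%), with Dnaja2 (247 bp), Hspa4l (218 bp) and Hspa13 (160 bp). Kinesins, dyneins and tubulins had 3 of 33 (9.09%), Kif14 (1345 bp), Tubb4b (1280 bp) and Kif20b (1039 bp), all beyond 1000 bp. G protein coupled receptors had 2 of 16 (12.5%), Gpr3 (1031 bp) and the prostaglandin receptor gene Ptger4 (696 bp).

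Lists near the share of all eligible peaks were TGF-beta and BMP signalling with 2 of 26 (7.69%), the BMP target gene Id2 (1666 bp) and the receptor gene Tgfbr1 (260 bp), and extracellular matrix and integrins with 3 of 47 (6.38%), led by the metalloproteinase gene Adamts6 (1136 bp). Another of these 3, Itgb3bp (690 bp), encodes an integrin-binding protein and not an integrin, so the list is wider than its name. Ubiquitin enzymes had 7 of 159 (4.40%), with the deubiquitinase gene Usp49 (1299 bp) first. More CpGs lay upstream than downstream in 6 of the 7, against 39.7% of all upstream-longer peaks. This count is small, was picked after the values were seen and was not tested. Cytosolic ribosomal proteins had 1 of 53 (1.89%), Rps21, and a list median of -2085 bp. Respiratory chain genes had 1 of 48 (2.08%), Ndufs8, and cell cycle genes had 2 of 70 (2.86%), Cdk6 and Cdc42ep2. Of these, Cdc42ep2 encodes a CDC42 effector protein and is not a cell cycle gene by that description. Interferon response genes had 1 of 24 (Irf9), splicing factors 1 of 25 (Sf3b6) and actin cytoskeleton genes 1 of 25. That 1 was Actb, which encodes beta-actin, with 3817 bp upstream and 2960 bp downstream. Mitochondrial ribosomal proteins (41 peaks), the proteasome (30), translation factors (43), Rab GTPases (41), cholesterol and fatty acid synthesis (17) and cadherins (5) had 0 upstream-longer peaks.

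**Figure D5:**
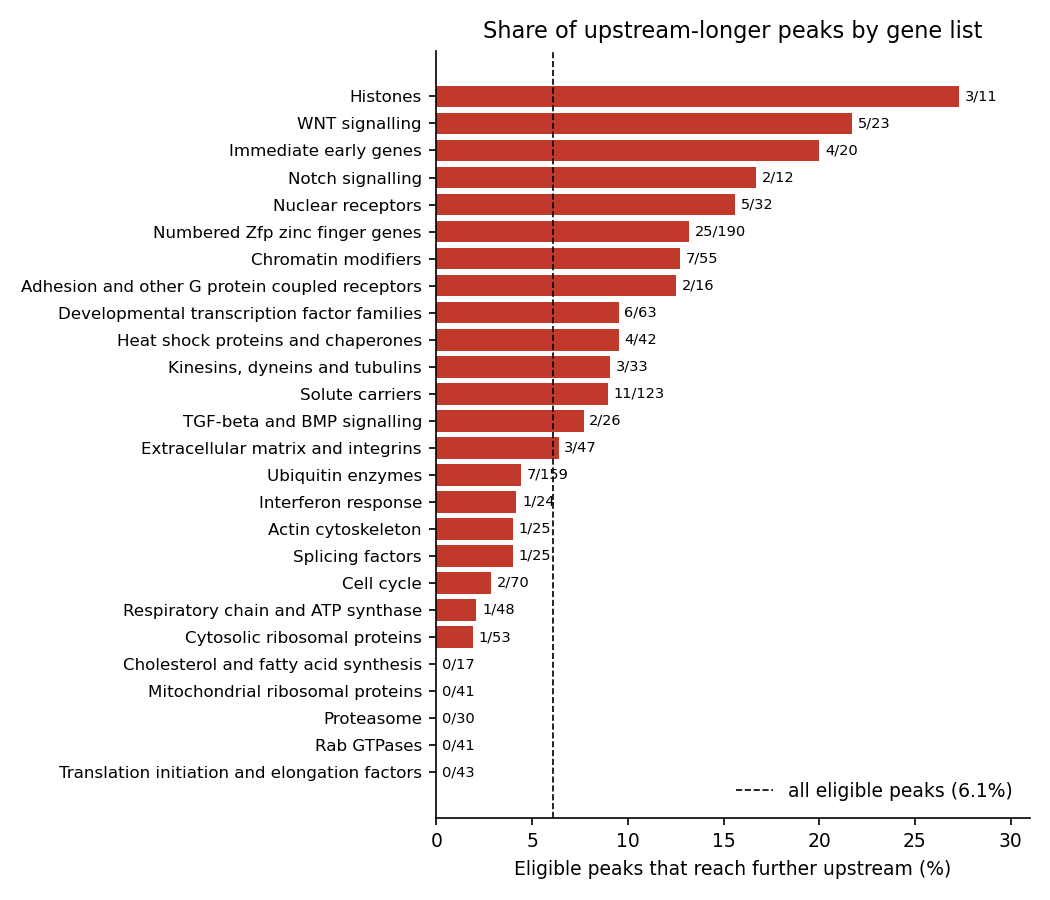
Share of the eligible peaks of each gene list that reach further upstream (horizontal axis, %), with the count over the eligible peaks beside each bar and the 6.1% of all eligible peaks as a dashed line, for the lists with 10 or more eligible peaks. Histones (3 of 11), WNT signalling (5 of 23) and immediate early genes (4 of 20) are at the top, and 5 lists are at 0.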

How the data were processed

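The peak list of 3 H3K4me3 ChIP-seq replicates of C127 cells was used. Samples were grouped by the labels, and the 21 other samples of the series, the input included, were not analysed here. According to the methods of the study, the authors aligned reads to mm10 with bowtie2, kept uniquely placed reads, removed duplicates with SAMtools, called peaks per replicate with MACS against the matched control, kept peaks overlapping in all replicates and merged close ones (smallest gap 251 bp in the list). The deposited list gives chromosome, start and end only, so no height, fold or depth could be used and replicates could not be compared. Peak edges depend on the caller and its threshold.

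Starts were converted to 1-based positions. Listed TSSs were those of basic transcripts of coding and lncRNA genes in GENCODE vM21 (52483 TSSs, 21755 coding and 9603 lncRNA genes, 20 chromosomes), which uses the same build. Unlisted starts were the 78109 further starts of the comprehensive set. Sequence came from the GRCm38.p6 reference of RefSeq, which has that build. Islands were merged windows of 200 bp in which GC made up a fraction of 0.5 or more and CpGs reached 0.6 or more of the number expected from base composition. Each tested value was the upstream-longer mean minus the other mean per chromosome (at least 5 upstream-longer peaks on each). It was tested by flipping the signs of the 20 chromosome differences (permutation test, two-sided, 100000 resamples), with Benjamini-Hochberg adjustment over 7 tests and a threshold of 0.05. The test was run on simulated independent normal values only, which cover neither dependence between neighbouring loci nor shares. Chromosomes were the units because neighbouring loci are not independent. The share of eligible peaks has a 95% Wilson interval.

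The named genes are the 12 with the largest difference, 4 on each side of the threshold, 6 with the largest difference and no unlisted start in the upstream side, 6 and 3 with the largest CpG excess upstream and downstream, and up to 3 from each list with 2 or more members. Other genes named were chosen after their values were seen, and some that the rule would name are left out. The members, lists and tests were chosen with earlier results of these data known. Computations were run with scipy 1.17.1, numpy 2.4.6, statsmodels 0.14.6, pandas 2.3.3 and matplotlib 3.10.9 under Python 3.11.15.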

Additional observations from a re-analysis of the deposited data

How the results depend on the processing

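The CpG asymmetry, the same-strand starts and the repeat shares kept their direction and stayed past the threshold under all alternatives run, 12, 15 and 11 in number, and with each chromosome left out. The alternatives on RefSeq starts, incomplete 5' ends, gene types of the starts, peaks covering 1 TSS, peaks over the first TSS of the gene and left-out chromosomes were chosen after seeing the data. The number of upstream-longer peaks was 862 of 7182 with the most downstream covered TSS, 257 with a margin of at least 250 bp, 177 with an upstream extent of at least 1.5 times the downstream one, and 272 among the peaks covering 1 TSS, and it stayed within 1.5 times of 438 under 6 others. The opposite-strand share did not pass the threshold with all gene types listed (2.37 percentage points), in a window of 1 to 1000 bp (3.24) and with curated RefSeq starts (2.13), and ranged from 3.79 to 5.26 with each chromosome left out. The share of starts that were not the first of the gene passed the threshold with the most downstream TSS (23.4), the comprehensive set (12.8), the margin of 250 bp (6.73), the ratio of 1.5 (10.6), without chromosome X (5.67) and with peaks covering 1 TSS (8.54), and ranged from 1.81 to 5.67 with each chromosome left out. For that share, the pass with the most downstream TSS is partly built in, because the setting moves the reference in peaks covering several TSSs. The same move can bring unlisted starts between covered TSSs into the same-strand window, so the same-strand size under that setting is partly built in as well. The CpG number within 1000 bp did not pass the threshold with peaks covering 1 TSS (-7.00). The difference in log10 gene length turned to 0.012 with the most downstream TSS and never passed the threshold. The cause of these changes was not tested. No paired analysis was possible because the list pools the replicates. With no heights or counts in the list, no limit set by depth can be given.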
